A study of Mus musculus with 9 samples.

Results

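The transcription factor p53 and 9 of its established target genes were followed across bone marrow-derived macrophages (BMDMs) that were kept as macrophages, driven towards osteoclasts, or driven with vitamins D and K present. The members were chosen by gene name: Trp53, which encodes p53, and Mdm2, Ccng1, Phlda3, Cdkn1a, Zmat3, Bbc3, Bax, Trp53inp1 and Eda2r. These are 10 of the 28379 genes in the deposited table, and all 10 were among the 17002 genes left after removal of low counts. BMDMs were grown from the marrow of C57BL/6J mice of 10 weeks of age, and all groups received M-CSF (20 ng/ml), the growth factor that keeps macrophages alive. Cells of the PBS group saw no RANKL, the cytokine that drives osteoclast formation. Those of the RANKL group were given it at 100 ng/ml. Those of the RANKL + Vit D + K group were given the same RANKL together with active vitamin D (calcitriol, 1000 nM) and a vitamin K, menaquinone-4. The labels give the menaquinone-4 dose as 20 μM, and the study's methods give another dose. RNA was collected after 48 h from 3 replicates per group (9 libraries). The labels do not say whether replicates came from separate mice, and the methods speak of pooled RNA, so p-values measure only the spread between these libraries.

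p53 protein is made constantly and destroyed constantly, because MDM2 marks it for degradation. Damage to DNA and other stresses stop that destruction, so p53 activity changes mainly through its protein and can rise with little change in its mRNA. Active p53 switches on genes that halt the cell cycle, repair DNA or start apoptosis, and it switches on its own inhibitors, which closes a feedback loop. Several of the same genes also answer to other factors. ATF4 and CHOP, which act in the response to amino acid shortage and endoplasmic reticulum stress, are known to raise Bbc3, Sesn2 and Gdf15 without p53.

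The total count was between 65915112 and 68229647 per library. Control genes were read beside the p53 genes. The osteoclast markers Acp5 and Ctsk were called higher under RANKL than under PBS and lower once vitamins were added, and Cyp24a1, which degrades vitamin D, had 0 counts in the RANKL libraries and 39 to 113 counts with the vitamins. The macrophage markers were present in every library, and their summed level over 8 genes was 25338 to 39698 CPM (counts scaled to library size) under RANKL and 9423 to 18428 CPM with the vitamins. Lyz2 (lysozyme) was by far the most abundant of them. With the vitamins against RANKL, 6 of the 8 were called lower, Itgam had no call, and Cd68 was called higher (log2 fold change 0.53, adjusted p = 0.0143, edgeR). Of all tested genes, 17.2% were called lower and 16.4% higher in that comparison. Cd68 and Itgam are named to complete the count. Neutrophil markers summed to 10.8 to 134 CPM with RANKL and 0.515 to 1.35 CPM with the vitamins, where 5 of the 8 markers (Ltf, Camp, Elane, Mpo and Ly6g) had no counts. In RNA from a whole culture, fewer cells of a type and less RNA per cell cannot be told apart, and the part of these cell markers in the results below was not tested. Replicate 2 stood apart in each group by its cell cycle genes: of 18 such genes, replicate 2 had the highest level for 17 under PBS, 18 under RANKL and 17 with the vitamins. Replicates 1 and 3 had the highest correlation of log CPM within each group.

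Promoter sequence was read for the members from RefSeq (GRCm38.p6), in the 250 bases before each annotated start. The table held 11 windows for 8 members, and Zmat3 and Trp53inp1 had none. p53 binds a pair of decamers, each close to the p53 consensus decamer. An exact decamer stood upstream of 5 members (Trp53, Mdm2, Ccng1, Cdkn1a and Bax), against 7.13% of all 32851 promoter windows. Decamers in tandem with no spacer and at most 1 mismatch were present in 25 windows of the table, 0.0761% of all, and these included Cdkn1a and Ccng1. The Cdkn1a element starts 51 bases before the upstream start of the gene, which lies 2790 bases before the second start in the table, and the second window held no match. The C/EBP-ATF element bound by ATF4 and CHOP was searched as TGATGNAA on both strands. It was found in 0 of the 11 windows and in 3.45% of all windows. A match is a description of letters and not a measured binding site, and a window without a match says nothing of sites elsewhere in the gene. The stretch of Trp53 is not shown, because it overlaps an exon of Wrap53. The stretches shown here carry the matches in capitals, and none overlaps an exon of GENCODE M21. They are chr17:29090877-29090969 (plus strand) for Cdkn1a, chr11:40755422-40755521 (minus strand) for Ccng1, chr10:117710890-117710989 (minus strand) for Mdm2 and chr7:45467045-45467144 (minus strand) for Bax. Cdkn1a and Ccng1 are shown for the tandem element, and Mdm2 and Bax for a single decamer.
Cdkn1a: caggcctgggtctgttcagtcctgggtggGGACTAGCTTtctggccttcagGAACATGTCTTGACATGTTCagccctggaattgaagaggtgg
Ccng1: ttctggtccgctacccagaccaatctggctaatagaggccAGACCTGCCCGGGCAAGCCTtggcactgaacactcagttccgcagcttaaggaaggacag
Mdm2: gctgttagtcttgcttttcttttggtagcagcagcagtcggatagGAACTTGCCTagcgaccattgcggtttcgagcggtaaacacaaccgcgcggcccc
Bax: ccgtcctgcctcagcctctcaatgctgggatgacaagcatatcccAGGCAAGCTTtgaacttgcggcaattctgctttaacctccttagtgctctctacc

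Levels are given as FPKM, a count scaled by transcript length and library size, which allows genes to be compared with each other. The mean level of the members in the PBS group ran from 85.4 FPKM for Bax, the most abundant, through Ccng1 (43.8), Cdkn1a (38.7), Mdm2 (24.0), Trp53inp1 (20.3) and Trp53 (12.8) to Bbc3 (7.75), Zmat3 (4.06) and Phlda3 (2.77). Eda2r was near absence in these cells.

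**Figure D1:**
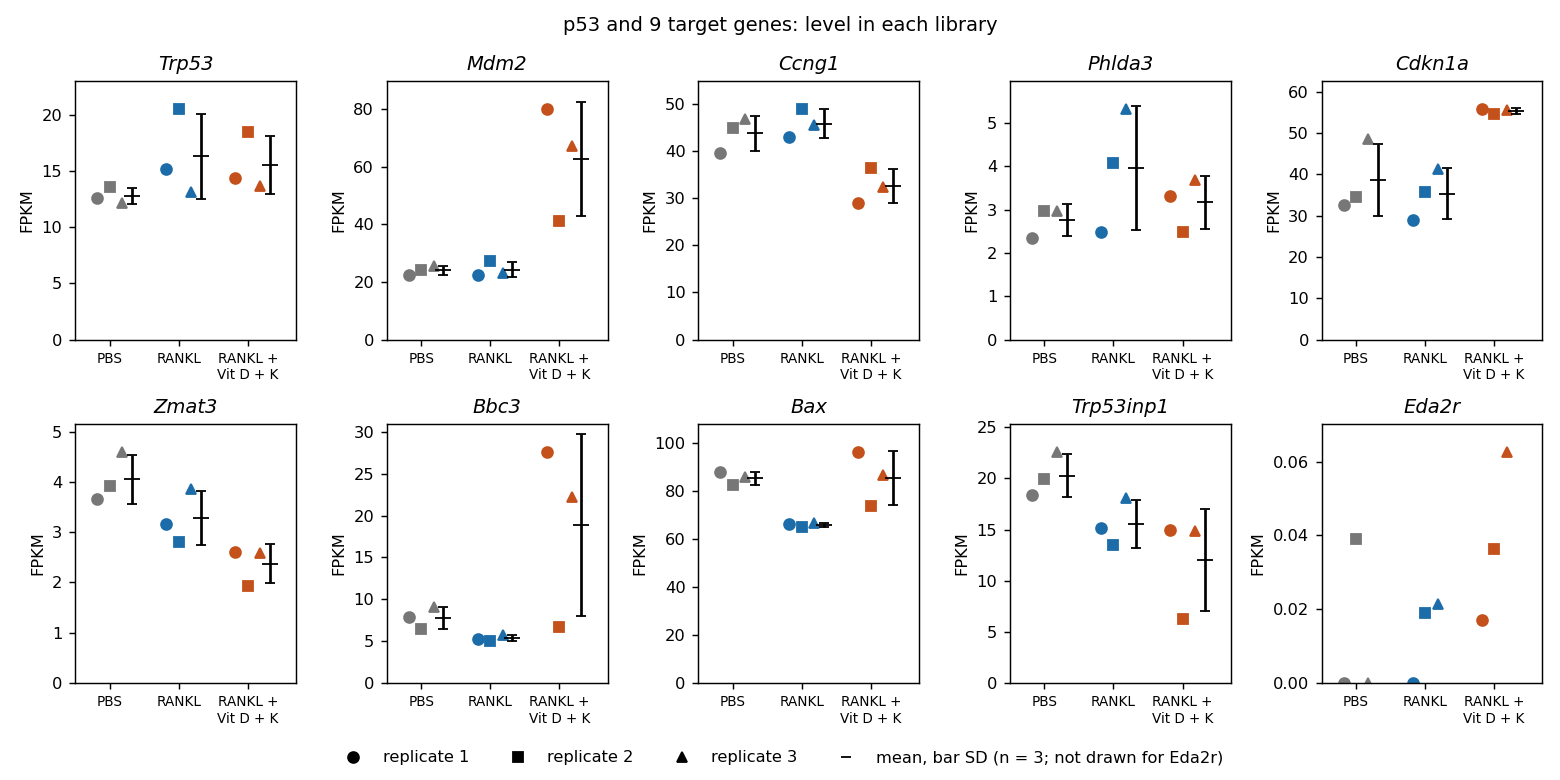
FPKM of Trp53 and 9 p53 target genes in each of the 9 libraries, by group, with the mean and SD of 3 replicates beside the points (not drawn for Eda2r). Mdm2 and Cdkn1a sit higher in all RANKL + Vit D + K libraries than in any other library, while Ccng1 and Zmat3 sit lower.

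Trp53 itself (ENSMUSG00000059552, chromosome 11, 69580359 to 69591873, plus strand) showed no called change between any groups. FPKM read 12.6, 13.6 and 12.2 under PBS (replicates 1, 2 and 3, the order used throughout), 15.2, 20.5 and 13.2 under RANKL alone, and 14.3, 18.4 and 13.7 once both vitamins were added. The RANKL libraries overlapped those of both other groups, the vitamin libraries lay just above PBS, and replicate 2 was the highest in each group. The log2 fold change with the vitamins against RANKL was 0.08 (95% interval -0.24 to 0.39, adjusted p = 0.71). Against PBS, the log2 fold change was 0.22 with RANKL (adjusted p = 0.464) and 0.29 with RANKL and the vitamins (adjusted p = 0.123). Adjusted p-values throughout come from the quasi-likelihood test of edgeR, adjusted by Benjamini-Hochberg over all 17002 genes. A processed pseudogene, Trp53-ps, had 27 to 224 counts per library, and reads may be shared between it and Trp53. By Pearson's r of log2 CPM over the 9 libraries, the tested genes most like Trp53 were Nutf2-ps1 (r = 0.971), Snrnp40 (0.968) and Selenoi (0.966). Of the other genes of the family, Trp73 had too few counts to be tested, and the name Trp63 was absent from the deposited table.

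Genes that feed back on p53 or on survival signalling parted from each other with the vitamins: Mdm2 rose, Ccng1 fell, and Phlda3 had no call. Mdm2 (ENSMUSG00000020184, chromosome 10, 117688875 to 117710758, minus strand) encodes the ubiquitin ligase that sends p53 to the proteasome. FPKM read 22.3, 24.2 and 25.6 under PBS, 22.5, 27.3 and 23.1 under RANKL alone, and 80.2, 41.2 and 67.1 once both vitamins were added. The PBS and RANKL libraries overlapped, and every library with the vitamins lay above all of them, replicate 2 the least. Mdm2 was 2.93-fold higher with the vitamins than with RANKL alone (log2 fold change 1.55 ± 0.254 SE, adjusted p = 0.0029) and also higher than with PBS (log2 fold change 1.44, SE 0.253, adjusted p = 0.00256, edgeR). Between RANKL and PBS the log2 fold change was -0.11 (95% interval -0.67 to 0.45, adjusted p = 0.869).

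Ccng1 (ENSMUSG00000020326, chromosome 11, 40748552 to 40755311, minus strand) encodes cyclin G1, which recruits a phosphatase to MDM2 and so dampens p53. FPKM read 39.6, 45.0 and 46.7 under PBS, 43.0, 49.0 and 45.5 under RANKL alone, and 29.1, 36.4 and 32.3 once both vitamins were added. All libraries with the vitamins lay below all other libraries. The decrease was small, with a log2 fold change of -0.35 against RANKL (SE 0.0995, adjusted p = 0.0255) and -0.41 against PBS (SE 0.0995, adjusted p = 0.0109, edgeR). It lost its call against RANKL when any RANKL library, or replicate 1 or 3 of the vitamins, was left out, with adjusted p-values of 0.0539 to 0.0874, and with only the 2 groups in the fit (0.0564). The call against PBS was lost without replicate 2 or 3 of PBS or replicate 1 or 3 of the vitamins (adjusted p 0.0570 to 0.0880).
Phlda3 (ENSMUSG00000041801, chromosome 1, 135766119 to 135769136, plus strand) encodes an inhibitor of AKT, a survival kinase. FPKM read 2.34, 2.98 and 2.98 under PBS, 2.48, 4.09 and 5.33 under RANKL alone, and 3.32, 2.49 and 3.70 once both vitamins were added. The groups overlapped in each comparison, and the spread among the RANKL libraries was the widest. The log2 fold change with the vitamins against RANKL was -0.16 (95% interval -0.87 to 0.54, adjusted p = 0.723, edgeR).

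Cdkn1a (ENSMUSG00000023067, chromosome 17, 29090976 to 29100727, plus strand) encodes p21, the inhibitor of cyclin-dependent kinases through which p53 halts the cell cycle. FPKM read 32.7, 34.6 and 48.7 under PBS, 28.9, 35.8 and 41.2 under RANKL alone, and 55.9, 54.6 and 55.5 once both vitamins were added. The PBS and RANKL libraries overlapped, and all vitamin libraries lay above both. Cdkn1a rose 1.74-fold with the vitamins against RANKL (log2 fold change 0.80, SE 0.192, adjusted p = 0.0131) and was higher than with PBS by 0.54 (SE 0.192, adjusted p = 0.0482, edgeR). Without replicate 1 of the RANKL group the adjusted p against RANKL was 0.0571. Against PBS the call was lost in 8 of 18 alternatives, 6 of them single libraries left out, with adjusted p up to 0.123 without replicate 1 of the PBS group. A short transcript on the opposite strand shares 273 exonic bases with Cdkn1a and had 38 to 159 counts. The tested genes most like Cdkn1a over the 9 libraries were Ube2w (r = 0.973), Zcchc10 (0.969) and Gm13034 (0.962).

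Zmat3 (ENSMUSG00000027663, chromosome 3, 32334792 to 32366014, minus strand), which encodes an RNA-binding protein that controls splicing and mRNA decay, went the other way. FPKM read 3.66, 3.92 and 4.60 under PBS, 3.17, 2.80 and 3.86 under RANKL alone, and 2.60, 1.93 and 2.59 once both vitamins were added. The vitamin libraries lay below all others in FPKM, where the PBS and RANKL libraries overlapped. In normalized CPM the vitamin and RANKL libraries overlapped, and the PBS libraries lay above both. Zmat3 was lower with RANKL and the vitamins than with PBS (log2 fold change -0.73, SE 0.212, adjusted p = 0.0221), a call that was lost without replicate 3 of the PBS group (adjusted p = 0.0913, edgeR). Against RANKL alone the log2 fold change was -0.31 (95% interval -0.78 to 0.17, adjusted p = 0.291).

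Among the apoptosis genes, Bbc3 and Bax rose with the vitamins, and Trp53inp1 and Eda2r had no call. Bbc3 (ENSMUSG00000002083, chromosome 7, 16308393 to 16318205, plus strand) encodes PUMA, a BH3-only protein that triggers mitochondrial apoptosis. FPKM read 7.81, 6.37 and 9.08 under PBS, 5.28, 5.03 and 5.75 under RANKL alone, and 27.6, 6.72 and 22.2 once both vitamins were added. The RANKL libraries were the lowest, replicates 1 and 3 of the vitamins were the highest, and replicate 2 of the vitamins lay within the range of PBS. Bbc3 was 4.02-fold higher with the vitamins than with RANKL (log2 fold change 2.01, SE 0.467, adjusted p = 0.0115, edgeR), the largest called change among the members. Without replicate 2 of the vitamins this log2 fold change was 2.43 (adjusted p = 2.5e-05). Against PBS the log2 fold change was 1.35 (SE 0.458, adjusted p = 0.0416), the libraries overlapped, and the call was lost in 12 of 18 alternatives, with adjusted p up to 0.128 without replicate 1 of the vitamins.

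Bax (ENSMUSG00000003873, chromosome 7, 45461697 to 45466898, minus strand) encodes the protein that opens the outer mitochondrial membrane once PUMA and its relatives release it. FPKM read 87.7, 82.4 and 86.0 under PBS, 66.1, 64.9 and 66.7 under RANKL alone, and 96.3, 73.7 and 86.6 once both vitamins were added. The RANKL libraries lay tightly together below all others, while the vitamin and PBS libraries overlapped. The rise with the vitamins against RANKL had a log2 fold change of 0.54 (SE 0.152, adjusted p = 0.0246). That call was lost without any RANKL library or replicate 1 or 3 of the vitamins (adjusted p 0.0608 to 0.0715) and with only the 2 groups in the fit (0.0632). Between RANKL and PBS the log2 fold change was -0.50 (SE 0.152), with an unadjusted p of 0.00922 and an adjusted p of 0.114 (edgeR). It passed at 0.0125 with only the 2 groups in the fit and at 0.0113 without replicate 2 of the vitamins. With RANKL and the vitamins against PBS the log2 fold change was 0.04 (95% interval -0.30 to 0.38, adjusted p = 0.863). A predicted gene on the same strand, Gm45808, shares 192 exonic bases with Bax and had at most 6 counts.

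Trp53inp1 (ENSMUSG00000028211, chromosome 4, 11156431 to 11174379, plus strand) encodes a p53 partner that acts in apoptosis and autophagy. FPKM read 18.4, 19.9 and 22.6 under PBS, 15.1, 13.5 and 18.1 under RANKL alone, and 14.9, 6.22 and 14.8 once both vitamins were added. All PBS libraries lay above all others, and replicate 2 of the vitamins lay far below the rest. The log2 fold change of -0.70 against PBS with RANKL and the vitamins had an adjusted p of 0.123 (95% interval -1.46 to 0.06, edgeR). Against RANKL it was -0.20 (adjusted p = 0.676), and 0.14 without replicate 2 of the vitamins (adjusted p = 0.484). Eda2r (ENSMUSG00000034457, chromosome X, 97333840 to 97377216, minus strand), a receptor of the TNF receptor family, had counts of 0, 19 and 0 under PBS, 0, 9 and 10 under RANKL alone, and 8, 17 and 28 once both vitamins were added. The groups overlapped, and at these counts no fold change was determined. The floor of 3 counts corresponds to 0.044 to 0.0455 CPM, for counting error only.

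**Figure D2:**
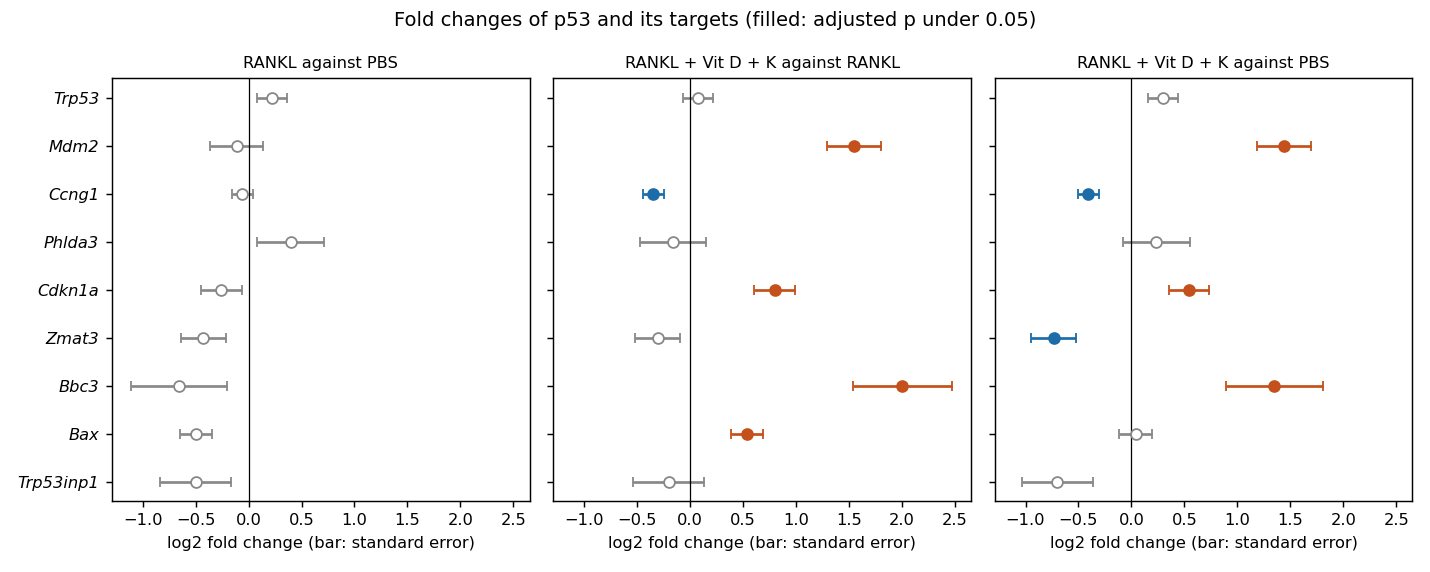
Log2 fold changes from edgeR with their standard errors for 9 members in the 3 comparisons (Eda2r is left out for low counts). No member was called between RANKL and PBS, and with the vitamins against RANKL Mdm2, Cdkn1a, Bbc3 and Bax lie to the right of 0 and Ccng1 to the left among filled symbols.

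RANKL alone gave 0 calls among the 10 members, and the vitamins gave calls in both directions. Between RANKL and PBS, edgeR called 3.61% of all genes (2.35% higher and 1.26% lower), and of the members only Bax had an unadjusted p under 0.05 (1 of 10 members, and 3163 of 17002 over all genes), with DESeq2 also calling 0. The median log2 fold change was -0.19 over the members and -0.04 over all genes. For Bbc3, Bax and Trp53inp1 the RANKL libraries lay below all PBS libraries in FPKM, 3 of 10 members, as did 12.9% of all tested genes. None lay above, against 22.4% of all tested genes. Without replicate 2 of the vitamins, Bax and Bbc3 were called lower with RANKL (2 of 10, adjusted p = 0.0447 for Bbc3), and over all genes 5.23% were called lower in that fit. With the vitamins against RANKL, 4 of 10 members were called higher and 1 lower. Over all genes, 33.7% were called, 16.4% higher and 17.2% lower. In FPKM, 4 members lay above all RANKL libraries (17.0% of all genes) and 2 below (29.2%). The median log2 fold change was 0.31 over the members and -0.04 over all genes. Only 2 to 3 of the 5 calls were left when a RANKL library or replicate 1 or 3 of the vitamins was left out, and Mdm2 and Bbc3 were called in all 18 alternatives. Those fits with a library left out called 8.91% to 14.2% of all genes higher and 9.16% to 14.7% lower. With the vitamins and RANKL against PBS, 3 members were higher and 2 lower, and over all genes 40.8% were called, 19.8% higher and 21.0% lower. In FPKM, 3 members lay above all PBS libraries (24.8% of all genes) and 3 below (27.7%). The number of calls there fell to 2 without replicate 2 or 3 of PBS or replicate 1 or 3 of the vitamins, and to 3 without replicate 1 of PBS or replicate 1 or 2 of RANKL. Those fits called 13.9% to 18.6% of all genes higher and 12.9% to 19.1% lower. The comparisons share libraries, so their values stand side by side and are not separate evidence.

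The members also differed in how the vitamin libraries spread. Set against the mean of the RANKL libraries in normalized CPM, Bbc3 was 6.09-fold in replicate 1, 1.26-fold in replicate 2 and 4.70-fold in replicate 3. For Mdm2 the values were 3.93, 1.71 and 3.15, and for Cdkn1a they were 1.88, 1.56 and 1.79. In FPKM, by contrast, the vitamin libraries were nearly level for Cdkn1a (55.9, 54.6 and 55.5). Replicate 2 had the lowest ratio for 7 of 9 members, Ccng1 and Trp53 being the exceptions. Replicate 2 was also the vitamin library with the highest summed level of macrophage markers (18428 CPM) and of the cell cycle genes (2491 CPM, against 1753 and 2101 CPM in replicates 1 and 3). The part of these in the spread was not tested.

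**Figure D3:**
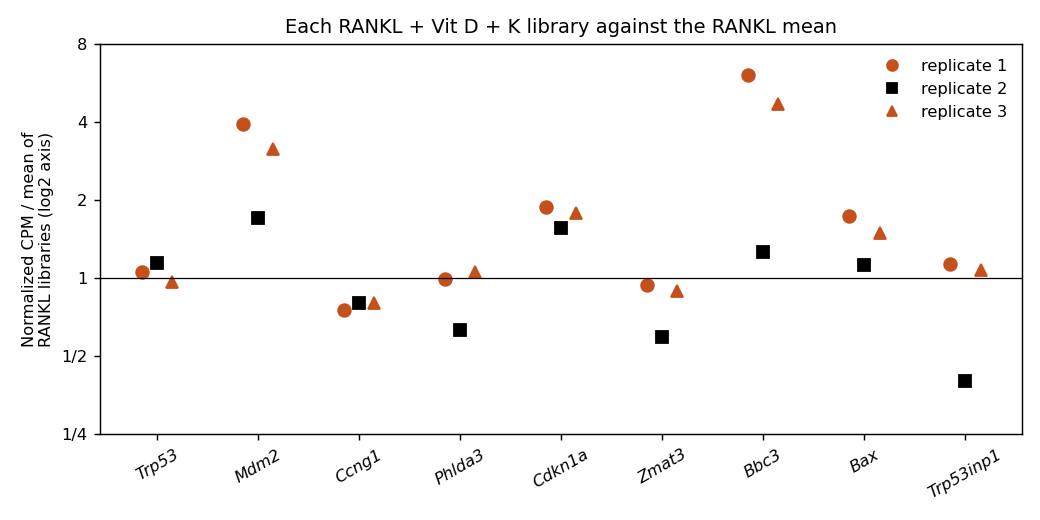
Normalized CPM of 9 members in each RANKL + Vit D + K library divided by the mean of the 3 RANKL libraries, on a log2 axis. Replicate 2 (black squares) lies lowest for 7 of the 9 genes, and for Bbc3 it stands at 1.26 against 6.09 and 4.70.

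A wider list of 40 further p53 targets was read in the same way, and 39 could be tested (Perp had too few counts). With the vitamins against RANKL, 9 were higher (23.1%) and 10 lower (25.6%), with a median log2 fold change of 0.07. Over all genes, 16.4% were higher and 17.2% lower, with a median of -0.04. The largest rises were in Gdf15, a secreted stress cytokine, Plk2, a kinase of the cell cycle, and Gadd45a, a DNA damage and growth arrest protein. Gdf15 had FPKM of 1.94, 2.87 and 1.72 with RANKL and 416, 86.8 and 333 after vitamins (log2 fold change 7.21, SE 0.645, adjusted p = 0.000329, edgeR). Plk2 had 3.36, 3.37 and 2.39 with RANKL and 297, 52.7 and 215 after vitamins (log2 fold change 6.16, adjusted p = 0.000573). Gadd45a had 2.80, 2.41 and 3.63 with RANKL and 183, 57.0 and 146 after vitamins (log2 fold change 5.62, adjusted p = 0.000324). In all of these, replicate 2 was again the lowest vitamin library and still lay far above RANKL. The other genes called higher were Aen, Plk3, Ppm1d, Rap2b, Rrm2b and Sesn2, named to complete the count.

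The largest falls were in Sesn1, a sestrin that restrains mTORC1, Btg2, an antiproliferative gene, and Ak1, an adenylate kinase. Sesn1 had FPKM of 31.8, 30.1 and 28.7 with RANKL and 2.61, 5.05 and 1.83 after vitamins (log2 fold change -3.14, SE 0.297, adjusted p = 0.00039, edgeR). Btg2 had 22.9, 21.5 and 22.7 with RANKL and 1.60, 8.44 and 2.06 after vitamins (log2 fold change -2.40, adjusted p = 0.0069). Ak1 had 1.53, 2.37 and 1.54 with RANKL and 0.134, 0.620 and 0.500 after vitamins (log2 fold change -1.98, adjusted p = 0.016). The vitamin libraries lay below all RANKL libraries for each of them. Dcxr, Dram1, Ei24, Ephx1, Fas, Sertad1 and Tap1 were the other genes called lower. Sesn1 and Sesn2, related targets of p53, were thus called in opposite directions. Between RANKL and PBS only Xpc (log2 fold change -0.89, adjusted p = 0.0166) and Abhd4 (log2 fold change -0.59, adjusted p = 0.0301) were called, 2 of 39, both lower with RANKL, against 1.26% lower over all genes. Xpc, a DNA damage sensor of nucleotide excision repair, had FPKM of 7.91, 8.18 and 9.27 with PBS and 4.99, 4.35 and 5.53 with RANKL. Abhd4 had 36.4, 35.8 and 37.1 with PBS and 28.3, 24.8 and 26.0 with RANKL. That count was 0 without any PBS library or replicate 1 or 2 of RANKL, 1 without replicate 3 of RANKL or of the vitamins, 6 without replicate 2 of the vitamins, and 6 with DESeq2. The share of all genes called moved likewise. It was 5.46% higher and 5.23% lower without replicate 2 of the vitamins, and 6.07% and 3.18% with DESeq2. With a PBS or RANKL library left out it was at most 1.28% higher and 0.502% lower.

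**Figure D4:**
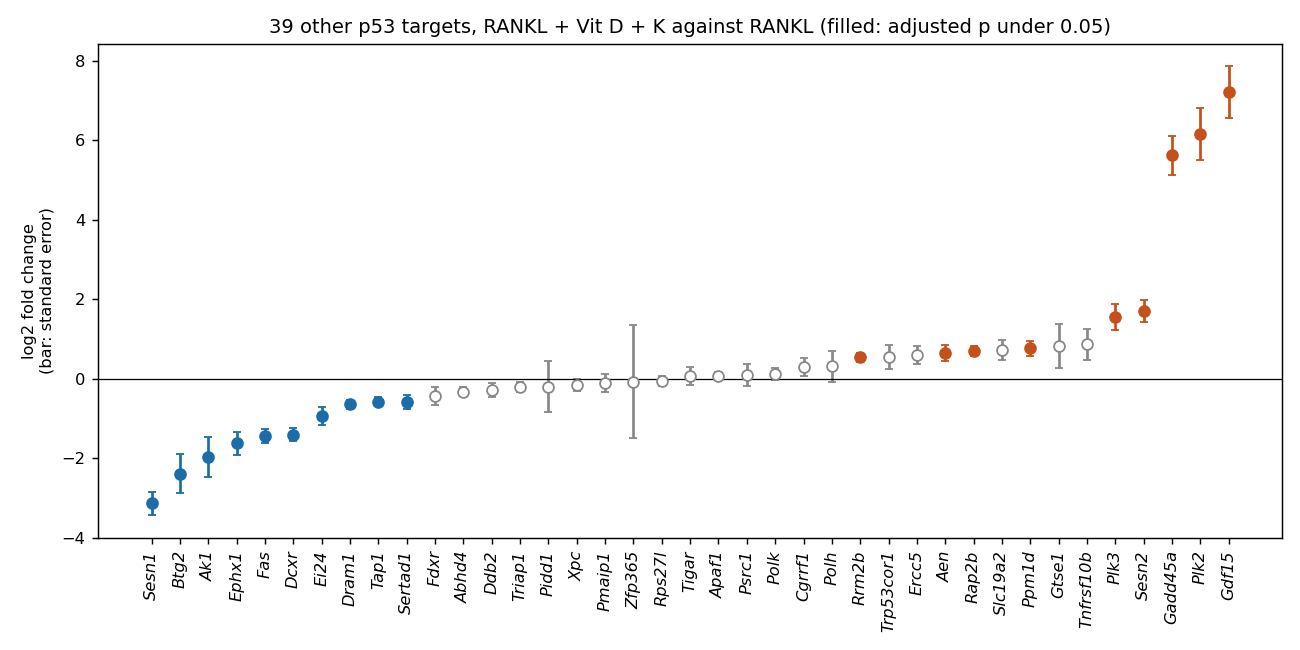
Log2 fold change with standard error of 39 further p53 targets, RANKL + Vit D + K against RANKL, in order of size. The 9 genes called higher reach 7.21 (Gdf15) and the 10 called lower reach -3.14 (Sesn1).

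Of the regulators of p53 protein, 21 genes were tested and 7 were higher with the vitamins than with RANKL (33.3%), with 0 lower, against 16.4% higher and 17.2% lower over all genes. Against PBS, 6 were higher and 3 lower (Cop1, Hipk2 and Ppp1r13b, named to complete the count), against 19.8% and 21.0% over all genes. Among the genes called higher, Trp53bp2, which encodes the p53 cofactor ASPP2, had the largest rise (log2 fold change 1.35, adjusted p = 0.0051). Next came the histone methyltransferase gene Kmt5a (1.28, adjusted p = 0.0024) and the deacetylase gene Sirt1 (1.28, adjusted p = 0.00928). The damage kinase gene Atr followed (1.04, adjusted p = 0.00358, edgeR). The ubiquitin ligase gene Rchy1 (0.85, adjusted p = 0.0101) and the deubiquitinase gene Usp7 (0.37, adjusted p = 0.025) were also higher. In FPKM, the vitamin libraries lay above all RANKL libraries for each of these 6 genes, with Usp7 at 17.5, 19.2 and 17.0 with RANKL and 20.7, 20.1 and 21.4 with the vitamins. The seventh gene called higher, the acetyltransferase gene Crebbp, named to complete the count, overlapped: it reached 4.64 with RANKL and had 9.69, 4.61 and 9.15 with the vitamins. Between RANKL and PBS the damage kinase gene Chek1 was the only call (log2 fold change 2.79, adjusted p = 0.0463). With the vitamins against RANKL, Chek1 had a log2 fold change of 1.42 and no call (adjusted p = 0.0874, edgeR). Chek1 also belongs to the cell cycle genes, and its FPKM was 0.279, 1.55 and 0.419 with RANKL and 0.0449, 0.105 and 0.124 with PBS.

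Genes of the ATF4 and CHOP response were read because they share targets with p53. With the vitamins, 6 of 7 were higher than with RANKL, against 16.4% of all genes, and Ddit4 had no call (log2 fold change 1.56, adjusted p = 0.103). Atf4 had FPKM of 33.9, 48.0 and 34.1 with RANKL and 408, 216 and 343 after vitamins (log2 fold change 3.24, adjusted p = 0.00027). Ddit3, which encodes CHOP, had 4.84, 5.37 and 4.88 with RANKL and 122, 68.7 and 113 after vitamins (log2 fold change 4.50, adjusted p = 0.00012, edgeR). Trib3, Asns, Chac1 and Atf3 were higher by 3.65 to 7.62 on the log2 scale. RANKL against PBS gave 1 call of 7, Trib3, which was lower with RANKL (log2 fold change -1.28, adjusted p = 0.0301), against 1.26% lower over all genes. For Atf4, Ddit3 and Atf3 the vitamin library with the lowest level was replicate 2, as for Bbc3 and Mdm2, while Chac1 was highest there. The p53 targets divided likewise: Gdf15 was lowest in replicate 2, whereas Sesn2 (20.2, 31.5 and 21.4 FPKM with the vitamins) and Plk3 (4.06, 8.71 and 4.50 FPKM), chosen after their values were seen, were highest there. Whether these genes and the p53 targets have a common source was not tested.

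**Figure D5:**
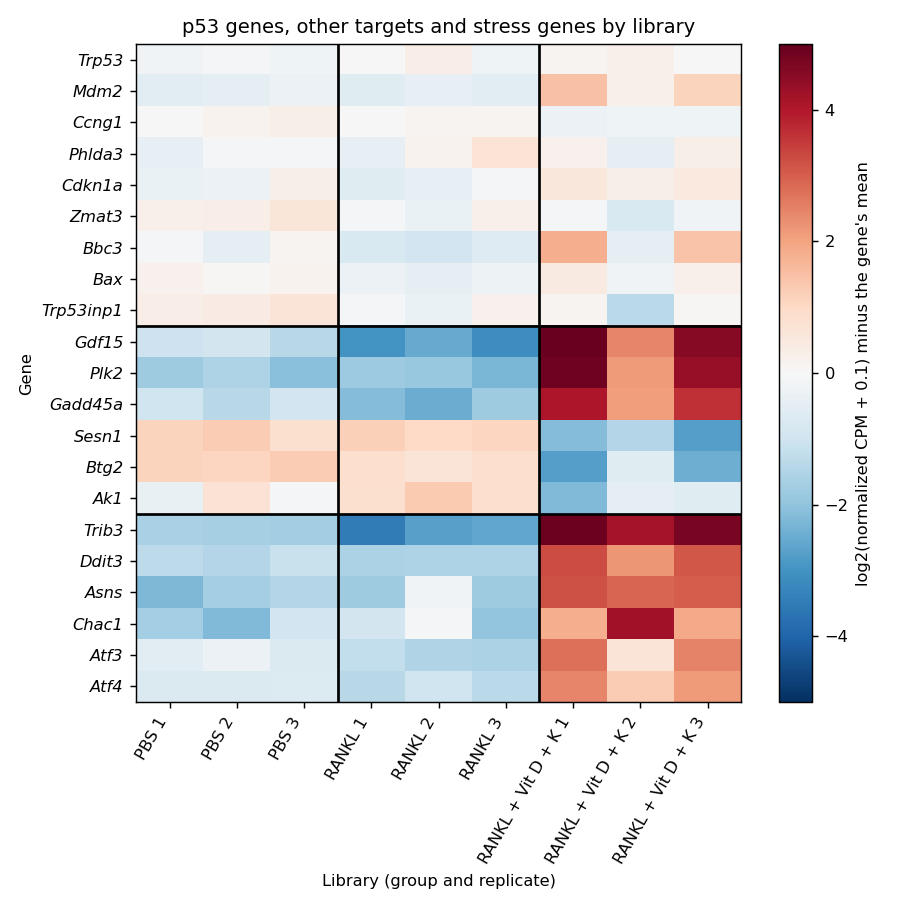
Log2(normalized CPM + 0.1) of members (top), the named further p53 targets (middle) and ATF4-CHOP genes (bottom) in the 9 libraries, each gene set to its own mean. Trp53 stays near 0 in every library, while Mdm2, Gdf15, Plk2 and Gadd45a are higher in every vitamin library than in any other and Sesn1 and Btg2 are lower. Bbc3 is high in vitamin replicates 1 and 3 only, and replicate 2 lies below all PBS libraries on this scale.

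Cell cycle genes that p21 represses through the DREAM complex were read beside Cdkn1a. With the vitamins against RANKL, edgeR called 0 of 18 in either direction (33.7% over all genes), 2 had an unadjusted p under 0.05 (7605 of 17002 over all genes), and DESeq2 called 2. The median log2 fold change was 0.80, and -0.04 over all genes. Their summed level was 514, 2074 and 670 CPM in the RANKL libraries and 1753, 2491 and 2101 CPM with the vitamins, higher in each same-numbered library. With the replicate number as a block, an alternative chosen for this list after seeing the data, 9 of 18 were called higher and 0 lower (median 1.18). The same block called 17.4% of all genes higher and 17.2% lower. The labels do not say that a shared number marks a shared culture or day, and same-numbered libraries of these groups did not deviate together in each pair. With RANKL and the vitamins against PBS, where Cdkn1a was also higher, 10 of 18 were called higher and 0 lower, with a median of 2.05, against 19.8% higher and 21.0% lower over all genes. Examples were Mcm5 (log2 fold change 3.21 against PBS, adjusted p = 0.00524) and Bub1 (3.17, adjusted p = 0.0108, edgeR). Mcm5, a subunit of the replicative helicase, had FPKM of 1.36, 3.03 and 1.42 with PBS, 4.10, 22.5 and 4.67 with RANKL, and 12.8, 28.1 and 13.3 with the vitamins. With the replicate block, 18 of 18 were called higher with RANKL and the vitamins than with PBS, and 5 of 18 between RANKL and PBS, where 1 was called without it. The shares of all genes called higher with the block were 20.4% and 3.16%, and 2.35% between RANKL and PBS without it. A higher Cdkn1a mRNA was measured in libraries whose cell cycle genes were not lower.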

How the data were processed

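RNA sequencing libraries made with oligo(dT) beads were used, 3 groups of 3. The authors deposited whole-number counts of reads per gene, not normalized, and FPKM values that the authors scaled for transcript length and library size. The submitters' processing notes name cutadapt 1.9, HISAT2 2.0.4, StringTie 1.3.4d and edgeR, and a human genome build. The gene identifiers and coordinates in the table are mouse, and those of 10 of 10 members equal GENCODE M21 (GRCm38). The counting program and its use of strand are not given in the sources used here. The value 4 occurred 2.22 times as often as the values 3 and 5 did on average, and counts may therefore overstate the number of separate fragments. Floors cover counting error only. The intervals of fold changes rest on the standard errors from edgeR, so they also include the spread between these libraries.

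The main test was the quasi-likelihood test of edgeR 4.0.16 (R 4.3.3; filterByExpr, TMM), with all 9 libraries fitted together. P-values were adjusted by Benjamini-Hochberg over 17002 genes, with a threshold of 0.05. Standard errors are the log2 fold change divided by the square root of F. Normalized CPM used TMM library sizes. The tests were checked on simulated counts. That simulation gave each gene the same spread in every group, so it does not cover groups of unequal spread. Alternatives were DESeq2 1.42.0, limma 3.58.1 on log2(FPKM + 0.1) and log2(FPKM + 1), median-of-ratios factors, other filters, 2 groups per fit, counts divided by 4, each library left out, and the replicate number as a block. Same-numbered libraries of the PBS and RANKL groups deviated together (correlation of deviations 0.122, 0.219 and 0.155), and those of the RANKL and vitamin groups did not in each pair (0.00625, 0.0428 and 0.107).

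The members and gene lists were chosen with earlier results of these data known. Named genes are all members, up to 6 genes per list with the largest called changes whose CPM did not overlap between groups, treatment checks, and the 3 genes most correlated with Trp53 and Cdkn1a. Of the listed genes, Setd8 is an older name of Kmt5a. Stromal, dendritic, lymphoid, mast cell and erythroid markers summed to at most 4.87, 3.27, 0.415, 0.129 and 0.391 CPM in any library.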

Additional observations from a re-analysis of the deposited data

How the results depend on the processing

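Mdm2 and Bbc3 kept their call with the vitamins against RANKL in all 18 alternatives, as did Mdm2 against PBS, and the other calls of members were each lost without at least 1 single library. Counts of called members were 0 between RANKL and PBS, 5 with the vitamins against RANKL and 5 against PBS. With only the 2 groups compared they were 1, 3 and 3, and with all genes that had any count the last was 3. Leaving out 1 library gave 0 to 2, 2 to 5 and 2 to 5. Of the further p53 targets, 2 were called between RANKL and PBS, 6 with DESeq2, 6 with only the 2 groups, 1 with all genes of any count, and 0 to 6 with 1 library left out. Over all genes, RANKL against PBS gave 614 calls, 1621 with DESeq2, 1736 with only the 2 groups and 126 to 1903 with 1 library left out (most without replicate 2 of the vitamins, fewest without replicate 3 of PBS, with any PBS or RANKL library lowering the count by over 1.5 times). The vitamins against RANKL gave 5725 calls and 3199 to 8259 with 1 library left out. The share of calls that were higher there was 48.8%, and 36.2% with limma on log2(FPKM + 0.1), which shifted the all-gene median from -0.04 to -0.17 on the log2 scale.

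Signs turned only for changes without a call. Between RANKL and PBS, limma on log2(FPKM + 0.1) and on log2(FPKM + 1) gave 0.0137 and 0.0133 for Mdm2 and 0.0679 and 0.0665 for Ccng1. With 1 library left out, the range was -0.16 to 0.00589 for Mdm2, -0.0785 to 0.0585 for Ccng1 and -0.41 to 0.0129 for Cdkn1a. With the vitamins against RANKL, the same limma settings gave -0.0596 and -0.0570 for Trp53. With 1 library left out, the range was -0.0349 to 0.23 for Trp53, -0.40 to 0.15 for Phlda3 and -0.44 to 0.14 for Trp53inp1. Against PBS, Bax had -0.00598 and -0.00583 by limma and -0.0547 to 0.19 with 1 library left out. Eda2r, whose fitted values rest on a few counts and measure no fold, had 0.38 with the replicate block and -0.64 to 5.60 with 1 library left out between RANKL and PBS. With the replicate number as a block, 0, 5 and 5 members were called, and the block changed no call of a member. Depth limited Eda2r, which had at most 28 counts in a library.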
